A study of Mus musculus with 10 samples.

Results

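Mouse embryonic stem cells (ESC) were examined for 10 genes of the two-cell-like state other than the Zscan4 family: Tcstv1, Tcstv3, Zfp352, Tdpoz3, Tdpoz4, Usp17la, Usp17lc, Usp17le, Arg2 and Sp110. They were chosen by name and located, through the mm10 gene annotation, among 43031 features. A feature joins the 3′UTR annotated by UCSC for a transcript to the 2 kb that follow it. Of the 10 genes, 8 matched a feature, 10 features in all, and Tdpoz3 and Tdpoz4 matched none. RNA was sequenced from C57BL/6 ESC cultured with LIF on mitomycin C-treated mouse embryonic fibroblasts or on gelatin. WT cells had an intact Dido1 gene. DIDO3ΔE16 cells, derived with a Sox2-Cre transgene, were homozygous for the loss of the DIDO3-specific terminal exon. DIDO3ΔCT+HADIDO3 cells had lost the C terminus of DIDO3 and expressed HA-tagged DIDO3. Libraries of DIDO3ΔCT cells without HADIDO3 were not analysed here, and the sources used here do not say how many clones each genotype represents or whether libraries of a genotype came from separate cultures. P-values therefore measure the spread between libraries, which may be technical.

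Each genotype was represented by 3 libraries. The labels name 4 WT samples, of which replicates 2 and 3 have the same library number and were counted as 1 library (WT replicate 2-3). The flow cells of WT replicates 1 and 4 belong to a name series other than that of the remaining 7 libraries. Bases in features ranged from 1.46 to 2.61 Gb per library. At the distal 3′ end of Dido1, the levels were 13.7 to 17.9 TPM in WT, 0.307 to 0.546 in DIDO3ΔE16 and 10.9 to 12.1 in DIDO3ΔCT+HADIDO3. They were lowest in DIDO3ΔE16, which the study describes as lacking the terminal exon. The study states that the DIDO3ΔCT deletion affects that exon too. The source of the reads in DIDO3ΔCT+HADIDO3 was not tested. All 11 ESC markers, Pou5f1, Sox2 and Nanog among them, had a mean of at least 1 TPM in every genotype. Single libraries could lie far below the mean, with Nanog at 1.03 TPM in WT replicate 4 and Esrrb at 1.93 in WT replicate 1. Both of these features share bases with another on the same strand.

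The two-cell-like state is a transient condition of rare cells in ESC cultures. These cells transcribe genes and endogenous retroviruses that are otherwise active in the two-cell mouse embryo, when the zygotic genome is switched on. The transcription factor Dux drives many of these genes, DPPA2 and DPPA4 act upstream of Dux, and chromatin regulators such as TRIM28 hold the state in check. Most of the genes examined here belong to tandem families with near-identical copies. In bulk RNA, more cells in this state and more RNA per such cell cannot be told apart.

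In DIDO3ΔE16, 6 of the 7 members that could be tested were higher than in WT: Tcstv1, Tcstv3, Zfp352, Usp17la, Usp17lc and Usp17le. Their mean levels were 2.53 to 8.31 times those in WT. The 7th, Arg2, was not altered. In DIDO3ΔCT+HADIDO3, 2 of the same 7 were higher than in WT, Zfp352 and Usp17lc. Levels are given in TPM, the length-normalised share of a feature in its library. Differences are log2 fold changes of scaled TPM + 0.1, a scale that understates the change of low features, tested with limma and adjusted by Benjamini-Hochberg over all features tested. The threshold for calling a feature altered was an adjusted p under 0.05 together with a log2 fold change of 0.7 or more in either direction. Over all features, 8.40% of 24677 were called higher and 4.24% lower in DIDO3ΔE16 than in WT, and 8.03% of 24720 higher and 5.85% lower in DIDO3ΔCT+HADIDO3. The median log2 fold change of the 7 members was 2.06 in DIDO3ΔE16 and 0.67 in DIDO3ΔCT+HADIDO3, against −0.02 for all features in both. These 7 passed a filter that kept only features detected, with TPM above 0, in all libraries compared. Both comparisons used the same WT libraries.

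**Figure D1:**
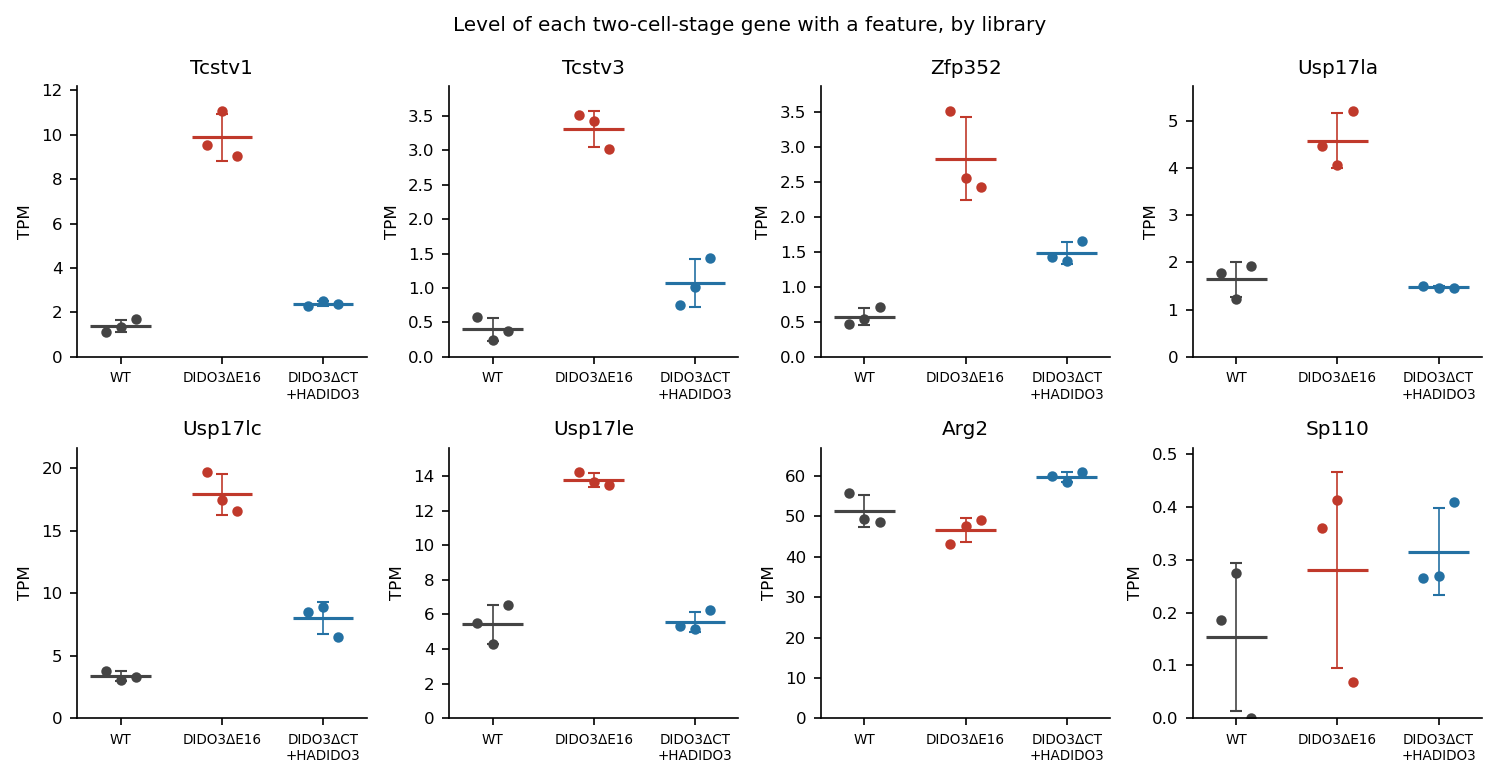
TPM of the 8 members with a feature in the 9 libraries. Points are libraries, from left to right in replicate order within a genotype, horizontal lines are means and error bars SD (n = 3 libraries), and each panel has its own linear axis from 0. In the panels of Tcstv1, Tcstv3, Zfp352, Usp17la, Usp17lc and Usp17le, all DIDO3ΔE16 libraries lie above all others, with Tcstv1 at 9.06 to 11.1 TPM against 1.14 to 1.71 in WT. Sp110 is shown by its only feature above 0.

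Directly compared, DIDO3ΔE16 exceeded DIDO3ΔCT+HADIDO3 for the same 6 genes, and 2 of the 8 members tested, Arg2 and Sp110, were not called. Over all features, 11.9% of 24883 were called higher and 11.4% lower in DIDO3ΔE16 in that comparison. The median log2 fold change of the 8 members was 1.25, against 0.01 for all features. The order of the mean levels was DIDO3ΔE16, DIDO3ΔCT+HADIDO3, WT for Tcstv1, Tcstv3, Zfp352 and Usp17lc, and the 3 genotypes did not overlap in any of these 4. For Usp17la and Usp17le, DIDO3ΔCT+HADIDO3 and WT overlapped. Of all features tested, the 2 groups did not overlap in 43.8% between DIDO3ΔE16 and WT, 46.9% between DIDO3ΔCT+HADIDO3 and WT, and 54.9% between the mutants, so a lack of overlap is common in these data.

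**Figure D2:**
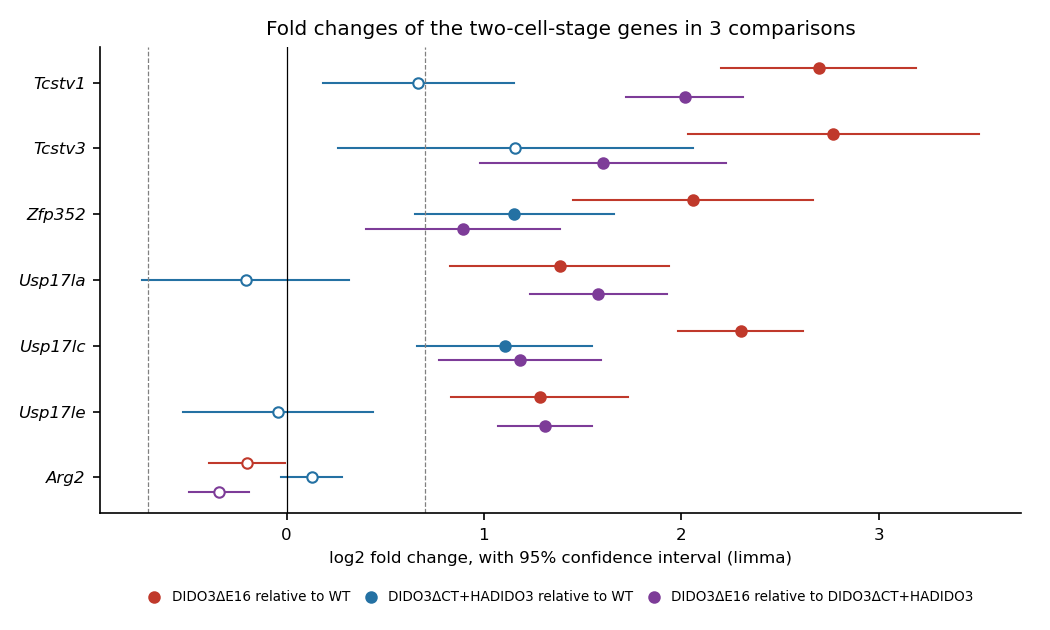
Log2 fold changes of the 7 members tested in all 3 comparisons, with 95% confidence intervals from limma. Filled points were called altered, open points were not, the solid line marks 0 and the dashed lines mark the threshold of 0.7 in either direction. The intervals of Usp17la and Usp17le in DIDO3ΔCT+HADIDO3 relative to WT span 0, whereas those of the other comparisons of these genes lie above 0.7.

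Tcstv1 and Tcstv3 belong to the two-cell-stage variable group, small genes of unclear biochemical function first known from two-cell embryos. Tcstv1 lies on the reverse strand of chromosome 13 (feature uc029sdp.2, mm10 119891387 to 119893578, 3′UTR and downstream window). Its levels were 1.14, 1.33 and 1.71 TPM in WT replicates 1, 2-3 and 4, 9.52, 11.1 and 9.06 in DIDO3ΔE16 replicates 1 to 3, and 2.29, 2.51 and 2.37 in DIDO3ΔCT+HADIDO3. No 2 genotypes overlapped, and DIDO3ΔCT+HADIDO3 lay much closer to WT than to DIDO3ΔE16. The log2 fold change relative to WT was 2.70 in DIDO3ΔE16 (SE 0.19; adjusted p = 0.0014, limma with Benjamini-Hochberg). For DIDO3ΔCT+HADIDO3 the value was 0.67 (SE 0.19; limma, Benjamini-Hochberg adjusted p = 0.0562), a narrow miss of both thresholds. The call was reached without WT replicate 4 (log2 fold change 0.82) and without scaling (0.76). Between the mutants the log2 fold change was 2.02 (SE 0.11; adjusted p = 2.98e-04, limma with Benjamini-Hochberg).

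Tcstv3 lies on the forward strand of the same chromosome (uc009shu.1, 120318077 to 120320261). It had 0.575, 0.242 and 0.381 TPM in the WT libraries, 3.51, 3.42 and 3.02 in DIDO3ΔE16, and 0.755, 1.01 and 1.44 in DIDO3ΔCT+HADIDO3. All 3 genotypes were again apart, but the WT values stood for few reads. Coverage multiplied by feature length amounted to 2 to 5.5 read pairs in the WT libraries (a pair taken as 152 bases, the base total seen most often among features with few reads) and to 21.9 to 28.2 in DIDO3ΔE16. The log2 fold change was 2.77 in DIDO3ΔE16 (SE 0.29; adjusted p = 0.00351, limma with Benjamini-Hochberg) and 1.16 in DIDO3ΔCT+HADIDO3, which was not called (SE 0.35; adjusted p = 0.0681). It was 1.60 between the mutants (adjusted p = 0.00574, limma with Benjamini-Hochberg). The transcripts of both genes are 94.4% identical over 640 aligned bases, and 72 of the 1205 windows of 76 bases in the Tcstv1 transcript occur unchanged in that of Tcstv3. Of each feature, 91.2 and 91.5% lies past the end of the transcript, and how much of that stretch the copies share was not measured. Summed, Tcstv1 and Tcstv3 had 1.79 ± 0.267 TPM in WT (SD, n = 3 libraries), against 13.2 ± 1.23 in DIDO3ΔE16 and 3.46 ± 0.391 in DIDO3ΔCT+HADIDO3. The sum was called higher in DIDO3ΔCT+HADIDO3 than in WT, by 0.84 on the log2 scale (limma, Benjamini-Hochberg adjusted p = 0.00943).

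Tcstv1 and Tcstv3 lie about 427 kb apart, within a run of 14 features that starts at AF067063 and ends at Tcstv3. This run was chosen after its values were seen. Besides both members it holds 12 features, of which 6 could be tested in DIDO3ΔE16 and all 6 were called higher, with a median log2 fold change of 2.73. In DIDO3ΔCT+HADIDO3, 3 of 6 were called higher and 1 lower. Gm21761, 18.7 kb from Tcstv1, was at 0.740 ± 0.332 TPM in WT (SD, n = 3 libraries) and rose to 8.26 ± 1.35 in DIDO3ΔE16 and 3.74 ± 0.721 in DIDO3ΔCT+HADIDO3. D13Ertd608e, 44.9 kb to the other side, rose from 0.17 ± 0.0372 TPM to 2.05 ± 0.539 and 1.27 ± 0.264. In DIDO3ΔE16, Gm21761 had 2.21 times and D13Ertd608e 1.60 times the level in DIDO3ΔCT+HADIDO3, against 4.14 times for Tcstv1; between the mutants, Gm21761 was called and D13Ertd608e was not. Gm20767 differed from the rest of the run. It is listed as 2 features with the same coordinates, which together had 2.66 to 3.64 TPM in WT, 18.4 to 19.4 in DIDO3ΔE16 and 1.29 to 1.80 in DIDO3ΔCT+HADIDO3, so that the last group lay below WT. For the more abundant of both features, the log2 fold change in DIDO3ΔCT+HADIDO3 relative to WT was −1.08 (limma, Benjamini-Hochberg adjusted p = 0.0183). Within 300 kb of Tcstv1, 5 genes outside the run were tested in DIDO3ΔE16 with limma and 0 were called (2 at an unadjusted p under 0.05); at an end of the run, Zfp131 had 37.0 to 45.2 TPM in WT and 34.0 to 38.5 in DIDO3ΔE16. In DIDO3ΔCT+HADIDO3, Zfp131 was at 18.2 to 21.9 TPM and was called lower, as was the chemokine gene Ccl28.

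**Figure D3:**
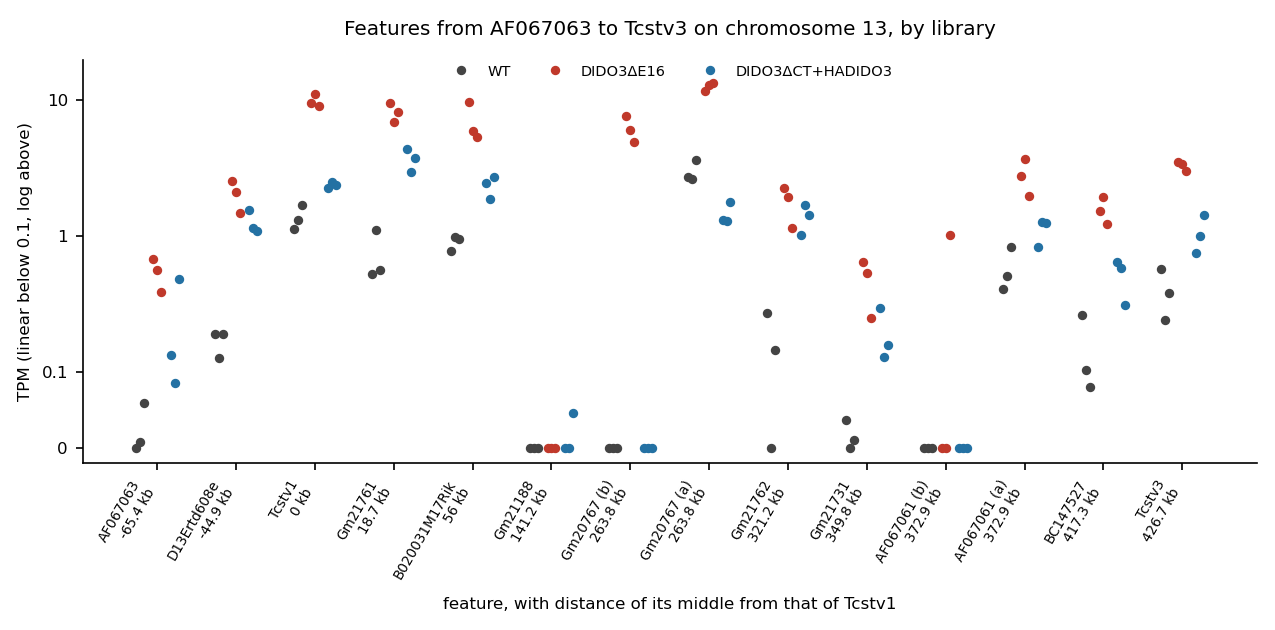
TPM of the 14 features from AF067063 to Tcstv3 in genomic order; points are libraries, the vertical axis is linear below 0.1 TPM and logarithmic above, and (a) and (b) mark features of a gene that share coordinates. In Gm21761, D13Ertd608e and B020031M17Rik both mutants lie above WT, whereas in Gm20767 DIDO3ΔCT+HADIDO3 lies below WT.

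Zfp352 encodes a zinc finger protein and is transcribed in two-cell embryos. Its feature lies on the forward strand of chromosome 4 (uc008tom.1, 90225281 to 90227687). The levels were 0.471, 0.544 and 0.707 TPM in the WT libraries, 3.52, 2.55 and 2.43 in DIDO3ΔE16, and 1.42, 1.37 and 1.66 in DIDO3ΔCT+HADIDO3. DIDO3ΔCT+HADIDO3 lay between the other genotypes without overlap. The log2 fold change was 2.06 in DIDO3ΔE16 (SE 0.24; adjusted p = 0.00461, limma with Benjamini-Hochberg) and 1.15 in DIDO3ΔCT+HADIDO3 (SE 0.20; adjusted p = 0.0126). With flow cell family as a covariate the latter kept its size (1.21) but lost the call (adjusted p = 0.0764 by limma). The difference between the mutants, 0.89 (SE 0.19; adjusted p = 0.0182, limma with Benjamini-Hochberg), was not called without DIDO3ΔCT+HADIDO3 replicate 1 (adjusted p = 0.0593, log2 fold change 0.87) or without replicate 2 (adjusted p = 0.0639, log2 fold change 0.83). The WT values stood for 5 to 6.6 read pairs and those of DIDO3ΔE16 for 23.1 to 24.5. Of the 2201 windows of 76 bases in its transcript, 60 occur in another transcript, the pseudogene Zfp353-ps. The feature lies for 83.1% past the end of the transcript, where shared windows were not counted. No named feature of another gene lies within 300 kb.

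The promoter of Zfp352 (RefSeq, GRCm38.p6, the 250 bases before and 50 after the start) holds a repeated unit. The first full copy is shown because its 18 bases from TAATCC onward occur 6 times unchanged in these 300 bases, at chr4:90218611-90218634 on the forward strand, with the letters TAATCC in capitals.

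Zfp352: cctTAATCCaggacaacacaccct

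The letters TAATCC, the core bound by homeodomain proteins of the bicoid type such as OTX2, occur 9 times in this promoter when both strands are counted. They occur at least once in 7.06% of 32851 promoters of that length, and 8 or more times in 1 of them, that of Zfp352. These matches describe letters only.

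Usp17la, Usp17lc and Usp17le encode deubiquitinating enzymes of the USP17 (DUB) family, which remove ubiquitin from proteins. All 3 rose in DIDO3ΔE16, but only 1 of them was called in DIDO3ΔCT+HADIDO3. Usp17lc lies on the forward strand of chromosome 7 (uc009itr.1, 103419138 to 103421174). It had 3.82, 3.06 and 3.33 TPM in the WT libraries, 19.7, 17.4 and 16.5 in DIDO3ΔE16, and 8.51, 8.91 and 6.52 in DIDO3ΔCT+HADIDO3. It was the most abundant of the 6 altered members in both mutants, and no genotypes overlapped. The log2 fold change was 2.30 in DIDO3ΔE16 (SE 0.12; adjusted p = 6.95e-04, limma with Benjamini-Hochberg), 1.11 in DIDO3ΔCT+HADIDO3 (SE 0.17; adjusted p = 0.00989) and 1.18 between the mutants (SE 0.16; adjusted p = 0.00398).

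Usp17la and Usp17le lie further along the same chromosome, on opposite strands. Usp17la (uc009iwz.2, 104861771 to 104864667, forward) had 1.77, 1.23 and 1.92 TPM in WT, 4.46, 4.06 and 5.21 in DIDO3ΔE16, and 1.51, 1.46 and 1.46 in DIDO3ΔCT+HADIDO3. Usp17le (uc029wnn.1, 104766049 to 104768310, reverse) had 5.51, 4.29 and 6.53 TPM in WT, 14.2, 13.6 and 13.5 in DIDO3ΔE16, and 5.34, 5.17 and 6.24 in DIDO3ΔCT+HADIDO3. Both were high in DIDO3ΔE16 alone. The log2 fold changes in DIDO3ΔE16 were 1.38 for Usp17la (SE 0.22; adjusted p = 0.0111) and 1.28 for Usp17le (SE 0.17; adjusted p = 0.00729, both limma with Benjamini-Hochberg). In DIDO3ΔCT+HADIDO3 they were −0.21 (95% confidence interval −0.73 to 0.32) and −0.04 (−0.53 to 0.44), so a change past the threshold lies within the interval of Usp17la. The sign of both turned with flow cell family as a covariate (0.16 and 0.28, neither called), and that of Usp17le also without scaling (0.05), without WT replicate 4 (0.10) and without DIDO3ΔCT+HADIDO3 replicate 2 (0.01). Between the mutants, the log2 fold change was 1.58 for Usp17la (adjusted p = 9.36e-04) and 1.31 for Usp17le (adjusted p = 5.47e-04, both limma with Benjamini-Hochberg).

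The shares of the 3 genes in their sum were compared next. Usp17lc took 28.3 to 35.7% of the summed TPM of the 3 genes in WT, 47.0 to 51.3% in DIDO3ΔE16 and 45.8 to 57.3% in DIDO3ΔCT+HADIDO3. The log2 ratio of Usp17lc to Usp17le within a library was −0.66 ± 0.27 in WT, against 0.37 ± 0.09 in DIDO3ΔE16 and 0.51 ± 0.39 in DIDO3ΔCT+HADIDO3 (SD, n = 3 libraries; 2-sided exact permutation p = 0.1 for either mutant with WT, the smallest p that 3 libraries against 3 allow). Between the mutants this ratio overlapped (exact permutation p = 0.6). The log2 ratio of Usp17lc to Usp17la was 1.67 to 2.14 in DIDO3ΔE16 and 2.15 to 2.61 in DIDO3ΔCT+HADIDO3, narrowly without overlap, and that of Usp17la to Usp17le was −1.75 to −1.37 and −2.09 to −1.82, also without overlap (exact permutation p = 0.1 for both). The transcripts of these genes are 93.5% identical or more over the bases that align. Of the 2328 windows of 76 bases in Usp17lc, 826 also occur in another transcript, all of them in Usp17ld, which matched no feature, 86 in Usp17le and 69 in Usp17lb. These windows cover the transcript, whereas 98.2% of the Usp17lc feature lies past the transcript end, so they do not measure how far the TPM of single genes is uncertain. The sum of the 3 was 10.5 ± 1.69 TPM in WT, against 36.2 ± 1.83 in DIDO3ΔE16 and 15.04 ± 0.709 in DIDO3ΔCT+HADIDO3. Between DIDO3ΔCT+HADIDO3 and WT this sum differed by 0.45 on the log2 scale (limma, Benjamini-Hochberg adjusted p = 0.0477), under the fold threshold, so the sum was not called. It also holds Usp17la and Usp17le and does not test Usp17lc alone.

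The 30 bases around the letters TATAAA, or their counterpart in Usp17la, are shown for the 3 Usp17l genes with a RefSeq promoter because the promoters of Usp17la and Usp17lc are 95.3% identical over 257 aligned bases while the genes differed in DIDO3ΔCT+HADIDO3. Capitals mark TATAAA or the letters in its place. The windows lie at chr7:104856959-104856988 (forward), chr7:103416597-103416626 (forward) and chr7:104842596-104842625 (reverse) of GRCm38.p6, and begin 57, 99 and 42 bases before the annotated start.

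Usp17la: caagactggagTTTAAAagactgagcattt
Usp17lc: caagactggagTATAAAagactgagcattt
Usp17lb: caaaactgaagTATAAAaggctgagcattt

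Counted from 1 at the 5′ end of the window, Usp17lc differs from Usp17la by T13A alone, and Usp17lb by T13A and 3 other bases. TATAAA, counted on both strands, occurs in 13.6% of all promoters. The match is one of letters only. Usp17lb, which is no member, had 1.3 ± 0.471 TPM in WT (SD, n = 3), against 3.68 ± 0.325 in DIDO3ΔE16 and 2.61 ± 0.981 in DIDO3ΔCT+HADIDO3. It was called higher in DIDO3ΔE16 (log2 fold change 1.43, adjusted p = 0.0278, limma with Benjamini-Hochberg) but not in DIDO3ΔCT+HADIDO3 (0.87, adjusted p = 0.186). Around the 3 members, the named genes within 300 kb were olfactory receptor genes, which were at 0 or under 1 TPM in every library, and Trim30d. Trim30d went the opposite way, with 1.32 to 2.45 TPM in WT, 0.293 to 0.795 in DIDO3ΔE16 and 0.056 to 0.118 in DIDO3ΔCT+HADIDO3, and was called lower in both mutants.

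Tdpoz3 and Tdpoz4 encode proteins with a TRAF-like (MATH) and a BTB/POZ domain and lie on the forward strand of chromosome 3 (93826020 to 93827117 and 93796398 to 93797510 in GENCODE). Neither matched a feature. Their GENCODE models have 0 bases after the stop codon, so no 3′UTR is annotated there, and their levels are not analysed here. Relatives with an annotated 3′UTR were measured. Tdpoz2 had 1.33, 1.52 and 1.26 TPM in WT, 3.72, 2.98 and 3.68 in DIDO3ΔE16, and 0.166, 0 and 0.096 in DIDO3ΔCT+HADIDO3. Tdpoz1 had 0.834, 0.173 and 0.341 TPM in WT, 2.12, 2.05 and 1.31 in DIDO3ΔE16, and 0, 0.154 and 0 in DIDO3ΔCT+HADIDO3. Both were highest in DIDO3ΔE16 and lowest in DIDO3ΔCT+HADIDO3, and no genotypes overlapped. Tdpoz2 was called higher in DIDO3ΔE16 (log2 fold change 1.21, adjusted p = 0.0061, limma with Benjamini-Hochberg), and Tdpoz1 had 1.91 (adjusted p = 0.0545). With all features above 0 in at least 1 library admitted, Tdpoz2 was called lower in DIDO3ΔCT+HADIDO3 than in WT (log2 fold change −3.14; limma, Benjamini-Hochberg adjusted p = 0.00814); Tdpoz1 had −1.87 (adjusted p = 0.118). This order differed from that of Tcstv1, Tcstv3, Zfp352 and Usp17lc, for which DIDO3ΔCT+HADIDO3 lay above WT.

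The same cluster holds the Tdpoz-like genes Gm9117, Gm9125 and Gm10696, which were added after their values were seen. They had means of 0.123 to 0.459 TPM in WT, 0.730 to 1.81 in DIDO3ΔE16 and 0.195 to 0.274 in DIDO3ΔCT+HADIDO3. All 3 were called higher in DIDO3ΔE16 than in WT and in DIDO3ΔE16 than in DIDO3ΔCT+HADIDO3, and 0 were called by limma between DIDO3ΔCT+HADIDO3 and WT (unadjusted p = 0.27, 0.864 and 0.0739). With all features above 0 in at least 1 library admitted, Gm9125 (adjusted p = 0.0588) and Gm10696 (adjusted p = 0.0541, both limma with Benjamini-Hochberg) were no longer called in DIDO3ΔE16 relative to WT, while Gm9117 still was. Of the Tdpoz1 windows of 76 bases, 718 of 2247 occur in other transcripts, all 718 in Gm9117, so these values may not be independent. The list of family relatives as a whole (Tdpoz1, Tdpoz2, Tdpoz5, Spop, Spopl, Usp17lb, Usp17ld, Arg1, Sp100, Sp140 and Zfp353) had 6 genes tested in DIDO3ΔE16, of which 2, Tdpoz2 and Usp17lb, were higher and 4 were not called; in DIDO3ΔCT+HADIDO3, 4 were tested and 0 were called by limma (1 at an unadjusted p under 0.05).

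**Figure D4:**
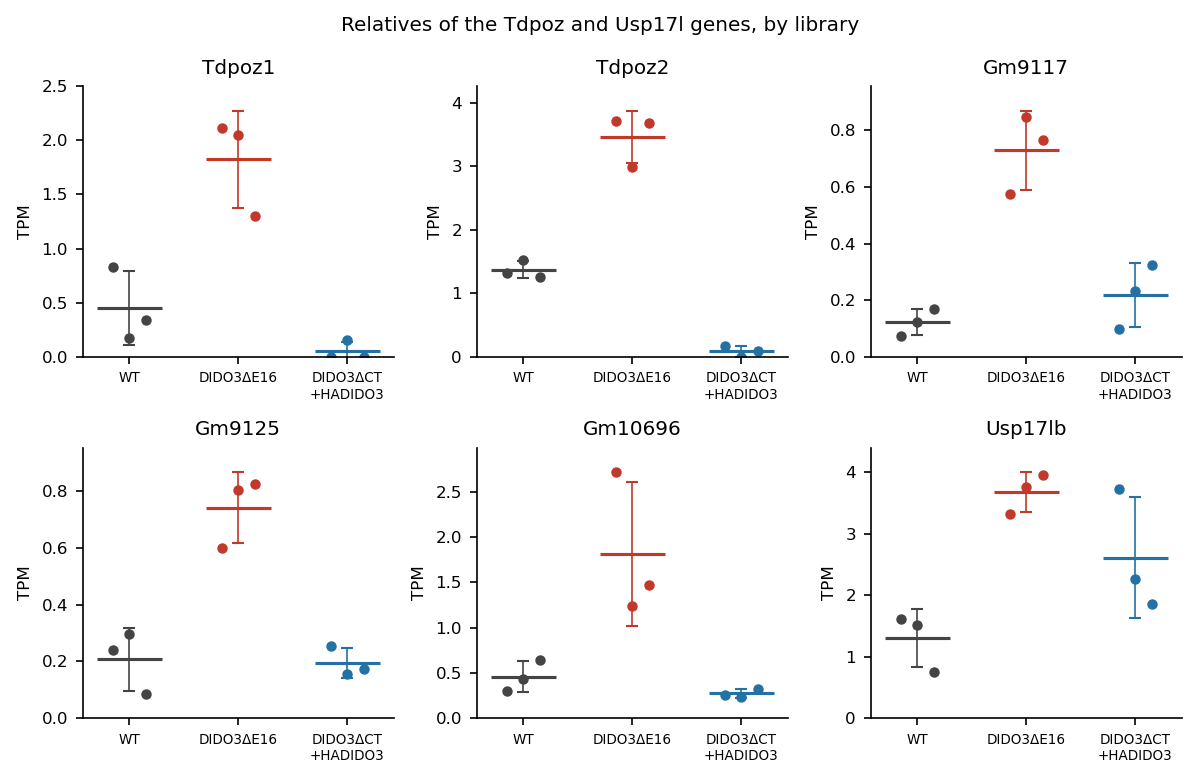
TPM of 5 Tdpoz and Tdpoz-like genes and of Usp17lb in the 9 libraries, drawn as points with mean and SD (n = 3 libraries per genotype) on linear axes from 0. DIDO3ΔE16 is above WT in every panel; in the panels of Tdpoz1 and Tdpoz2, DIDO3ΔCT+HADIDO3 lies below WT, and in that of Usp17lb it lies above WT and overlaps DIDO3ΔE16.

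Arg2 encodes the mitochondrial arginase, which splits arginine into ornithine and urea. It was by far the most abundant member, with 55.8, 49.3 and 48.6 TPM in WT, 43.2, 47.7 and 49.0 in DIDO3ΔE16, and 59.9, 58.5 and 60.9 in DIDO3ΔCT+HADIDO3 (uc007nzv.2, chromosome 12, 79156032 to 79158301, forward strand). WT and DIDO3ΔE16 overlapped, and DIDO3ΔCT+HADIDO3 lay above both. The log2 fold change relative to WT was −0.20 in DIDO3ΔE16 (95% confidence interval −0.39 to −0.01) and 0.13 in DIDO3ΔCT+HADIDO3 (−0.03 to 0.28). Changes as large as those of the altered members lie outside these intervals. Between the mutants it was −0.34 (SE 0.06; adjusted p = 0.00932, limma with Benjamini-Hochberg), under the fold threshold. The first 443 bases of the feature overlap Vti1b on the opposite strand, whose features there summed to 0.684 to 10.1 TPM. Some reads counted for Arg2 may therefore belong to Vti1b. Their share was not tested, and the Vti1b values do not give it, since no strand option is named for the quantification. Of 14 genes of arginine and polyamine metabolism, 12 were tested with limma and 0 were called in DIDO3ΔE16 (5 at an unadjusted p under 0.05). In DIDO3ΔCT+HADIDO3, 2 of 12 were called, both lower: Odc1, the ornithine decarboxylase (334 to 138 TPM, log2 fold change −1.37), and Amd1, the S-adenosylmethionine decarboxylase (341 to 215 TPM, −0.76).

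Sp110, a nuclear body protein induced by interferons, was near the limit of detection. It is listed as 3 features with the same coordinates (chromosome 1, 85574899 to 85577291, reverse strand), and 2 of them were at 0 TPM in all 9 libraries. The remaining one, uc007bub.2, had 0.187, 0.275 and 0 TPM in WT, 0.36, 0.413 and 0.068 in DIDO3ΔE16, and 0.266, 0.269 and 0.41 in DIDO3ΔCT+HADIDO3, at most 5 read pairs in any library. All 3 genotypes overlapped. Because of the 0 it was tested only between the mutants, where the log2 fold change was −0.25 (95% confidence interval −1.51 to 1.01; adjusted p = 0.724, limma with Benjamini-Hochberg). A difference between the mutants as large as that of Zfp352 (0.89) lies within that interval and was not detectable at this depth. Of 18 interferon-regulated genes, 12 were tested in DIDO3ΔE16 and 1, Rsad2, was called, lower. In DIDO3ΔCT+HADIDO3, 2 of 13 were called lower, Ddx58 (66.8 to 20.2 TPM, log2 fold change −1.82) and Bst2 (65.9 to 43.4 TPM, −0.70), and those called higher included Ifit2 (1.46 to 3.71 TPM, 1.20).

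The Zscan4 genes, whose products mark the two-cell-like state, shared the direction of the 6 altered members in DIDO3ΔE16. All 5 Zscan4 genes with a feature were called higher there, with a median log2 fold change of 2.39, and all 5 in DIDO3ΔCT+HADIDO3, with 1.49. Their summed level was 41.7 to 46.0 TPM in WT, 214 to 272 in DIDO3ΔE16 and 121 to 132 in DIDO3ΔCT+HADIDO3. The summed level of the 6 members was 10.7 to 14.6, 49.7 to 54.9 and 19.7 to 20.4 TPM. The 6 members were chosen by their calls in DIDO3ΔE16, so a higher sum there followed from the choice. In DIDO3ΔCT+HADIDO3 their sum lay nearer to WT than that of the Zscan4 genes did. It includes Usp17la and Usp17le, at 0.90 and 1.03 times WT. Tcstv1 was at 1.72 times WT, Usp17lc, Zfp352 and Tcstv3 at 2.35 to 2.68 times, and the Zscan4 genes at 2.49 to 3.78 times. The difference between both groups of genes was not tested. Of the other two-cell transcripts, 8 of 13 tested were called higher in DIDO3ΔE16, among them Gm4340 (3.27 to 33.1 TPM, log2 fold change 3.24) and Gm5662 (5.55 to 46.0 TPM, 2.97). In DIDO3ΔCT+HADIDO3, 6 of 13 were called higher, led by Gm8300 (1.62 to 14.8 TPM, 3.05), and 2 lower, Gm20767 and Zfp750.

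Among 7 tested genes linked to the control of the two-cell-like state, 3 were called higher in DIDO3ΔE16. These were Dppa2 (160 to 348 TPM, log2 fold change 1.05), Duxbl1 (2.04 to 5.15 TPM, 1.20), a Dux-like homeobox gene, and Gata3 (0.736 to 2.72 TPM, 1.77). In DIDO3ΔCT+HADIDO3 none was called higher and 2 were called lower: Dppa4, the partner of DPPA2 (118 to 70.7 TPM, −0.80), and Duxbl1 (to 1.23 TPM, −0.80). Dppa2 was also lower than in WT there, at 110 TPM (−0.63; limma, Benjamini-Hochberg adjusted p = 0.00284), but under the fold threshold. The Dppa4 call was narrow (limma, Benjamini-Hochberg adjusted p = 0.0457). Its feature shares bases with another on the same strand, and the WT libraries ranged from 83.65 to 135.7 TPM. Dux itself matched no feature. Of 25 repressors, 2 were called in DIDO3ΔE16, Trim28 lower (162 to 91.7 TPM, log2 fold change −0.88) and Zfp809, which guides TRIM28 to retroviral sequences, higher (110 to 204 TPM, 0.83). In DIDO3ΔCT+HADIDO3, Trim28 was called higher (to 291 TPM, 0.75) and Lin28a lower (739 to 444 TPM, −0.83). The Trim28 feature lies for 92.2% past the transcript end and overlaps a feature on the opposite strand. How many of its reads come from Trim28 was not tested.

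Feeder fibroblast markers moved with the genotypes too. The summed level of 12 such genes was 91.9 to 99.8 TPM in WT, 178 to 187 in DIDO3ΔE16 and 91.5 to 117 in DIDO3ΔCT+HADIDO3. Of 10 tested in DIDO3ΔE16, 8 were called higher, Col1a1 and Postn among them, and 1, Pdgfra, lower; in DIDO3ΔCT+HADIDO3, 2 of 8 were higher and 5 lower. From 11.7 TPM in WT, mean Col1a1 went to 28.7 in DIDO3ΔE16 but to 1.14 in DIDO3ΔCT+HADIDO3, and Col1a2 from 18.2 to 38.2 and 0.239. The 2 called higher in DIDO3ΔCT+HADIDO3 were Pdgfrb, from 5.16 TPM in WT to 31.4, and Thy1, from 19.1 to 54.4. Dcn and Lum were at or near 0 in all libraries, at most 0.129 and 0.061 TPM. The part of fibroblast RNA in the results for the members was not tested.

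For each altered member, the genes outside the lists with the most similar profile over the 9 libraries were identified by Pearson correlation of log2(TPM + 0.1), among 8893 features. The points share their genotype and library, so these correlations describe the order of 3 genotypes rather than gene-by-gene variation. Tcstv1 was most like Gnmt (r = 0.993) and Gm11545 (0.992), and Tcstv3 most like Borcs7 (0.988), Skida1 (0.984) and Tmem269 (0.983). Zfp352 was most like Grifin (r = 0.99), Tmem117 (0.989) and Opn3 (0.985). Usp17lc followed Sec14l2 (r = 0.991), 1700052K11Rik (0.989) and Flrt1 (0.988). Usp17le followed Auh (r = 0.992), Baiap2l2 (0.992) and Scn4b (0.989), and Usp17la followed Zfp362 (0.99), Dnajc18 (0.988) and Glul (0.985). Among the 6 members themselves, Usp17la and Usp17le were most alike (r = 0.979), followed by Zfp352 and Usp17lc (0.958), and Zfp352 and Usp17la least (0.736).

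The features measure the 3′ end and what follows it. The added downstream window made up 69.0% of the feature for Usp17la and 83.1 to 98.2% for the other members with a feature, so these levels may differ from those of the full transcripts, and reads past the annotated end cannot be told apart from reads within the 3′UTR in these values.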

How the data were processed

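A total of 9 libraries of mouse ESC RNA, 3 per genotype, were used. The TPM values were deposited by the authors, who mapped paired-end reads with BWA-MEM (0.7.15; mm10), discarded duplicates and quantified 3′UTRs extended by 2 kb with StringTie (1.3.3). The command lines in the file headers name no strand option, although the methods of the study describe stranded sequencing. The aligner ran with standard settings, which place a read that matches several copies at one of them. The TPM tables are rounded to 3 decimals. Mean coverage per base, from the same StringTie files, was used for depth only.

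Features were named from GENCODE M21 and UCSC identifiers (42255 of 43031), each gene taken by its most abundant feature. Scaling used the mean log2 ratio between libraries after trimming 30% at each end; 0.1 was added and features above 0 in every library of a comparison were fitted with limma (3.58.1, R 4.3.3; trend, robust; 2-sided). The study tested these values with a method for counts, which TPM are not, so limma was used. On simulated data for DIDO3ΔE16 and WT (24677 features, 5 sets of 200 changed), 30.8% of log2 changes of 1 and 54.6% of 2 were recovered, with 0 of the wrong sign. A mean of 6.8 unchanged features per set were called. The share of changed features was far below the share called in the data, so these rates may not carry over. Members and gene lists were chosen with earlier results of these data known. Named from the lists were at most 4 genes per list and comparison, called and with a mean of at least 1 TPM; for each altered member, 3 genes of similar profile. Some genes that meet this rule are not reported here. Alternatives were pseudocounts of 0.01 and 1, other filters, no scaling, sums over a gene or family, the flow cell family as covariate, 1 fit over all 9 libraries, the omission of each library in turn, and a block for the replicate number. Promoters came from RefSeq (GRCm38.p6), transcripts from GENCODE. Sequences were aligned with Biopython (1.88).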

Additional observations from a re-analysis of the deposited data

Results flagged for a closer look

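For 6 members the effects in the mutants differed when DIDO3ΔE16 and DIDO3ΔCT+HADIDO3 were compared directly with limma. The log2 fold change of DIDO3ΔE16 relative to DIDO3ΔCT+HADIDO3 was 2.02 for Tcstv1, 1.60 for Tcstv3, 0.89 for Zfp352, 1.58 for Usp17la, 1.18 for Usp17lc and 1.31 for Usp17le. In all 6, every DIDO3ΔE16 library lay above every DIDO3ΔCT+HADIDO3 library; the 2 groups did not overlap in 54.9% of all features tested in that comparison.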

How the results depend on the processing

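Between DIDO3ΔE16 and WT, the 6 calls held under every alternative except the replicate number as a block, which left 0 of 7, at log2 fold changes of 1.42 to 2.92 for those 6 (limma, adjusted p = 0.184 to 0.2). A family sum that was called counts here for each of its members. Between the mutants 5 or 6 members were called under every alternative; Zfp352 was the one lost, with a pseudocount of 1 (log2 fold change 0.63), with the block (0.89) or without DIDO3ΔCT+HADIDO3 replicate 1 or 2. Between DIDO3ΔCT+HADIDO3 and WT the number called was 1 with a pseudocount of 1 and 1 with flow cell family as a covariate, where Zfp352 was lost, and 0 with the replicate block (Zfp352 1.23, Usp17lc 1.25). It was 3 without scaling or without WT replicate 4, where Tcstv1 was added, and 3 with sums over a gene or in the fit of all 9 libraries, where Tcstv3 was. With sums over a family, Tcstv1 and Tcstv3 were replaced by 1 sum, which was called. The 3 Usp17l genes were replaced by another sum, which was not called (0.45) and is no value of a single gene. In the same comparison the sign of Usp17le turned without scaling (0.051), with the flow cell covariate (0.28) and with the block (0.035), and leaving out libraries gave −0.20 to 0.10. That of Usp17la turned with the flow cell covariate (0.16). Leaving out libraries moved Sp110 between the mutants from −0.55 to 0.26.

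The replicate numbers did not pair the samples: same-numbered libraries of different genotypes correlated at −0.0173 to 0.0235 in their deviations from the group means. The block leaves few residual degrees of freedom. Depth limits Tcstv3, Zfp352 and Sp110 most, at few read pairs per WT library; only WT replicate 2-3 shares the flow cell series of the mutants.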

Other observations

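Markers of primitive endoderm, a lineage that leaves the pluripotent state, were mostly lower in both mutants. Of 9 tested markers of trophoblast and primitive endoderm, 5 were called lower in DIDO3ΔE16, all of primitive endoderm (Gata6, Gata4, Pdgfra, Sox7 and Dab2), and the trophoblast marker Eomes was called higher (23.2 to 44.9 TPM, log2 fold change 0.91). Cdx2, another trophoblast marker, had 0.82 there and was not called (limma, Benjamini-Hochberg adjusted p = 0.109). In DIDO3ΔCT+HADIDO3, 7 of 9 were called lower, again all of primitive endoderm. The summed level of all 10 listed trophoblast and primitive endoderm genes, Eomes included, was 96.4 to 111 TPM in WT. It was 75.5 to 83.0 in DIDO3ΔE16 and 41.1 to 52.6 in DIDO3ΔCT+HADIDO3. Of 11 ESC markers, 0 were called by limma in DIDO3ΔE16 (5 at an unadjusted p under 0.05). The features of Nanog and Esrrb share bases with another on their strand and varied widely between libraries. In WT they ranged from 1.03 to 270 and from 1.93 to 391 TPM. Their log2 fold changes in DIDO3ΔE16, 3.96 (SE 2.3) and 5.97 (SE 2.2), were not called, so a change of these 2 genes cannot be judged. In DIDO3ΔCT+HADIDO3, Zfp42 was higher (74.2 to 253 TPM, log2 fold change 1.67), and Fgf4 (689 to 404 TPM, −0.87) and Klf4 (423 to 270 TPM, −0.74) were lower.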
